A study of Mus musculus with 12 samples.

Results

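The genes described here encode the proteins of the cytoplasmic ribosome. They were taken from the deposited count table by symbol: Rpl or Rps with a number, an optional letter a, x or l and an optional digit, or Rplp0 to Rplp2, with pseudogene symbols ending in -ps left out. The rule took 84 of the 35976 genes in the table. Of these, 43 encode proteins of the large subunit, 30 of the small subunit, 3 the stalk and 8 are paralogs of a core gene, that is, copies or relatives whose symbols end in l or l1. A filter on low counts kept 83 of the 84, and the paralog Rpl32l did not pass it. The rule also took Rpl7l1, a distant relative of Rpl7, and it left out ribosomal proteins with other symbols.

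The genes were measured by RNA sequencing of primordial germ cells, from which eggs and sperm later form, sorted by an Oct4-GFP reporter from female mouse embryos at day E14.5. Total RNA of 5000 cells gave each library, and mRNA was taken on oligo d(T) beads. There were 4 groups of 3 libraries, and a library is named here by its group and replicate number (WT1, HxD1). WT was wild type, HxD was Tet1HxD/HxD with a catalytically dead TET1, V was Tet1V/V with a TET1 whose oxidation stalls at 5-hydroxymethylcytosine per the labels, and KO was Tet1-/-. All groups carried the same reporter and were female. TET1 oxidizes 5-methylcytosine in DNA, so the comparisons ask which transcripts depend on the protein and which on its catalytic steps. Whether the 3 replicates of a group are different embryos is not stated, and the p-values below reflect only how much these libraries vary, which may be technical.

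The ribosome is built of a small subunit, which reads the mRNA, and a large subunit, which joins amino acids, and each protein is needed in about equal numbers. The mRNAs of most ribosomal proteins start with a cytidine in a run of pyrimidines, the 5' terminal oligopyrimidine (TOP) motif, through which mTOR signalling and LARP1 set their translation. Mammalian core genes have left many processed pseudogenes, and a few functional copies, among them the autosomal Rpl10l and Rpl39l, are known for high levels in male germ cells, where the X-linked parents Rpl10 and Rpl39 are silenced during meiosis.

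The paralogs differ from their parents in sequence, which bears on how reads can be assigned to them. Coding sequences were aligned from transcripts of GENCODE M21 (GRCm38). They were 84.7% identical between Rpl10l and Rpl10, 85.5% between Rpl39l and Rpl39, 79.9% between Rps4l and Rps4x and 76.2% between Rps27l and Rps27. The aligned starts of these pairs are shown from the first base of the start codon, with capitals at the bases that differ; Rps4l is annotated without a coding sequence, so its stretch is of the transcript. The stretch is of 120 bases for 3 of the pairs and of 152 for Rpl39 and Rpl39l. It held 18 differences for Rpl10l, 22 for Rpl39l, 26 for Rps4l and 28 for Rps27l.
Rpl10: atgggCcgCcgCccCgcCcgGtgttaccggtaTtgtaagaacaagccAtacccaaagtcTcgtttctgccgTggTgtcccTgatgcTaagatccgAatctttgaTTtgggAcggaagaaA
Rpl10l: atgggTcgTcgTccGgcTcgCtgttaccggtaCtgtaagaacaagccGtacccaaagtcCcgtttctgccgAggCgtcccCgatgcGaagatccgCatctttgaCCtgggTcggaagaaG
Rpl39: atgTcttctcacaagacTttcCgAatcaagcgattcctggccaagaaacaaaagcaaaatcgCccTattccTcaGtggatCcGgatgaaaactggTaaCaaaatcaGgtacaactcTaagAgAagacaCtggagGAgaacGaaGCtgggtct
Rpl39l: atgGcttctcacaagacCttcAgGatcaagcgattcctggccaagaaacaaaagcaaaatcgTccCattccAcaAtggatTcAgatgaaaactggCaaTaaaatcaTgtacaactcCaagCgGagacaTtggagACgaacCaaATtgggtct
Rps4x: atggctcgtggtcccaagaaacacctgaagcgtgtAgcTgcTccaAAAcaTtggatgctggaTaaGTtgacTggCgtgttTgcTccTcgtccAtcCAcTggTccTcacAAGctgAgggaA
Rps4l: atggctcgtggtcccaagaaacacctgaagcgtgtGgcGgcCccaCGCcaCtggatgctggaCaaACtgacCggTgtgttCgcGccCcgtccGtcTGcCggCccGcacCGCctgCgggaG
Rps27: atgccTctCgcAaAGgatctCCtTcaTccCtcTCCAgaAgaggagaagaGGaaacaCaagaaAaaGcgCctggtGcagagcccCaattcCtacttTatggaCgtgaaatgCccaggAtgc
Rps27l: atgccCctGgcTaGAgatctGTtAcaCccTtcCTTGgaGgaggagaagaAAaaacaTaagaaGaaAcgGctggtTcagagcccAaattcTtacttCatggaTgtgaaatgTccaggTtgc

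No run of 50 bases of the Rpl3l, Rpl7l1, Rpl10l, Rpl22l1, Rpl39l, Rps4l or Rps27l transcript occurred in its parent's transcript, whereas 68 of the 350 runs of Rpl32l did. Many core genes also shared runs with other annotated genes, mostly pseudogenes. Of the runs of 50 bases in the 76 core genes, a median of 56.7% also occurred in the transcript of another gene, with 98.6% for Rps27, 92.1% for Rpl10, 72.2% for Rps4x and 16.5% for Rpl39. None of the runs of Rpl39l did. Rpl22l1 and Rpl32l shared more than their parents, at 65.6% against 24.5% for Rpl22 and 35.4% against 30.6% for Rpl32. How long the reads were and how multi-mapping reads were counted is not known here, so the levels of most core genes are uncertain to an extent that was not tested. Rps4l lies on chromosome 6, is annotated as a transcribed processed pseudogene and lies within or across the span of the coding gene Tmtc1 on the other strand. Some core genes, Rpl31 and Rpl5 among them, also overlap the span of a coding gene on the other strand. Whether exons of such pairs overlap was not examined. Where they do, reads of the pair cannot be told apart without the strand setting.

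The start regions of the core genes carried pyrimidine motifs that most other genes lacked. RefSeq promoters (GRCm38.p6) were available for 63 of the genes, 56 of them core genes and 7 paralogs, and were searched within 50 bases on either side of the annotated start for TCTTTC, for its variant TCTTTT and for both with C as the first base (CCTTTC and also CCTTTT). On the sense strand, 36 of the 56 core genes (64.3%) held at least 1 of these, against 15.3% of 27025 genes with a promoter and 11.6% of 69 mitochondrial ribosomal protein genes. On the other strand the share was 8.93% of the core genes and 14.9% of all genes. An unbroken run of at least 10 pyrimidines was present in 42 of the 56 core genes and in 20.6% of all genes. Of the 7 paralogs, only Rpl39l held a motif. Windows of 30 bases around the start are shown for core genes and for Rpl39l with 1 match in capitals (the Rpl35 and Rpl7a windows hold another match partly or wholly in lower case), and for Rplp0 and Rpl10l, where none of the 4 motifs was found.
Rpl35, chr2:39005113-39005142, minus strand: cccgccctttccTCTTTCtctcgaaccagg
Rpl7a, chr2:26910793-26910822, plus strand: ttccctcttcttTCTTTCtccagcagccga
Rpl18, chr7:45718061-45718090, plus strand: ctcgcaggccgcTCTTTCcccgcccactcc
Rps6, chr4:86857349-86857378, minus strand: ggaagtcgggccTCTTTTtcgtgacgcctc
Rps27, chr3:90213631-90213660, minus strand: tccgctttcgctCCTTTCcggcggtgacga
Rpl39l, chr16:10170209-10170238, plus strand: ctagctcccaggCCTTTCcggatttccggt
Rplp0, chr5:115559452-115559481, plus strand: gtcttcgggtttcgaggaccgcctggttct
Rpl10l, chr12:66284387-66284416, minus strand: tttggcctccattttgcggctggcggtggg
A match describes these letters in this window and is not evidence that a factor binds there.

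Across the series, library totals ranged from 18471158 to 29495313 counts, and the number of genes with a count from 12568 in KO3 to 17614 in HxD3. Levels are given in CPM, which puts the libraries on 1 scale by their totals and TMM factors. Tet1 was at 91.4 to 215 CPM in WT and at 80.8 to 158 CPM in KO, and since the deleted part is not given, these whole-gene counts do not check the KO label. All 11 germ cell markers listed had counts in each library, with a summed level of 3472 to 4423 CPM, but single markers changed. Mael and Dazl were called lower in each mutant by edgeR (log2 fold changes of -2.96 to -2.03 and -1.22 to -1.09). Tfap2c was called higher only in KO (1.07) and Pou5f1, which encodes Oct4, only in V (1.14). Pou5f1 was at 204 to 318 CPM in WT and higher in each mutant library. It was at 350 to 548 CPM in HxD, 357 to 621 in KO and 387 to 747 in V. Tfap2c was at 71.8 to 215 CPM in WT, 287 to 321 in KO and 262 to 343 in V, and HxD overlapped WT. Libraries of a mutant lay all above WT for 6.43% of all tested genes in HxD, 8.17% in KO and 8.7% in V. The part of these markers in the values below was not tested. The summed level of 14 markers of ovarian supporting and stromal cells was 6.60 to 63.0 CPM, that of 10 blood markers 0 to 34.3 CPM, and that of 6 endothelial markers 3.44 to 9.66 CPM. Markers of male spermatogenic cells, a setting known for Rpl10l, were at 0 in each WT, HxD and KO library and at 0 to 0.618 CPM in V.

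Ribosomal protein genes took between 4.17% (KO2) and 7.14% (WT1) of all counts in a library. The mean share was 5.80% ± 1.16 (SD, n = 3) in WT, 5.33% ± 0.684 in HxD, 5.29% ± 1.06 in KO and 5.94% ± 0.672 in V, and the groups overlapped. In bulk RNA, fewer cells of a type and less RNA per cell cannot be told apart. Large-subunit genes gave 50.2% to 53.0% of these counts and small-subunit genes 38.9% to 42.2%, so the balance of the subunits hardly moved between libraries. The most abundant was Rpl4, whose protein lines the exit tunnel of the large subunit, with a mean of 3124 CPM over the libraries, not corrected for length, and a range from 2793 in WT2 to 3587 in V1. Rps3, at the mRNA entry site of the small subunit, followed at 1912 to 3818 CPM, and Rpl8, near the catalytic centre of the large subunit, at 1671 to 2752 CPM; neighbours in this order overlapped between libraries.

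Compared per kilobase of transcript, the acidic stalk protein gene Rplp1 was highest, with a mean of 3863 CPM per kb, before Rpl8 at 2550.1 and Rps15 at 2386. The paralogs stood low on this scale, but to different degrees. Rpl10l was at 13.1 to 61.0 CPM per kb where its parent Rpl10 was at 293 to 484, and Rpl39l at 40.3 to 109.9 where Rpl39 was at 278 to 818. Rps4l reached 384 to 768 CPM per kb against 939 to 1465 for Rps4x. Rps27l, at 230.1 to 602 CPM per kb, overlapped its parent Rps27, at 397 to 818. Rpl3l, known as the muscle form of Rpl3, had a mean of 0.610 CPM per kb with 182 of its counts in WT1 and at most 36 in any other library, and Rpl32l had 41 counts in V1 and at most 9 elsewhere. The 6 muscle markers summed to at most 3.31 CPM in any library.

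**Figure D1:**
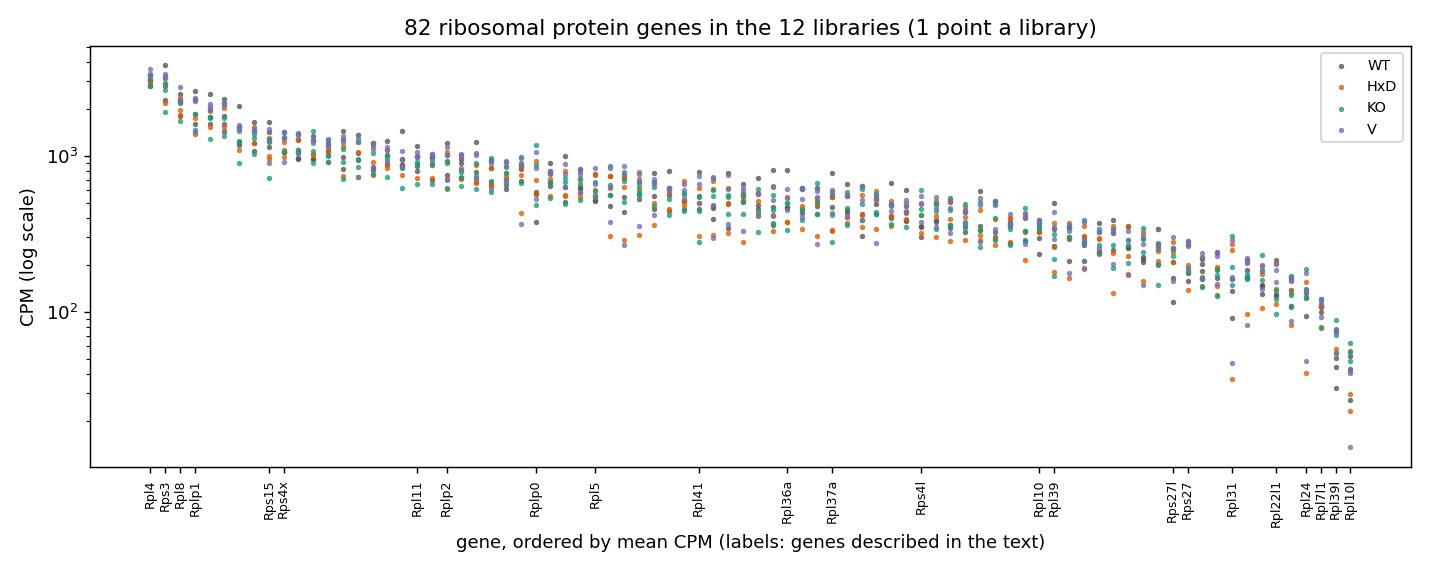
Level of each of 82 ribosomal protein genes in the 12 libraries, as CPM on a log scale, ordered by mean level with 1 point a library coloured by group and only genes the text describes labelled; Rpl3l and Rpl32l are left out. The paralogs Rpl39l and Rpl10l close the order on the right, and Rpl31 and Rpl24 each have a pair of points far below the others.

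Few ribosomal protein genes were called in a Tet1 mutant, at shares close to those of all genes. In KO against WT, 1 of the 83 tested genes was called, the paralog Rpl39l, which was higher (edgeR quasi-likelihood test, adjusted p under 0.05 over 16166 genes, of which 1.22% were called in either direction and 0.724% higher). None was called in HxD against WT, where 0.0309% of all genes were called, nor in V against WT, where 0.155% were. At an unadjusted p under 0.05, edgeR gave 4 genes in HxD (3 higher), 9 in KO (5 higher) and 5 in V (5 higher), which is 4.82%, 10.8% and 6.02% of those tested, against 7.25%, 13.2% and 9.69% of all genes. By DESeq2 the called counts were 0, 1 and 0 in HxD, KO and V, where 57, 476 and 143 of the 16166 genes were called. By limma-voom the count was 0 in each comparison, where 15, 187 and 20 of the 16166 genes were called. A gene that was not called is not shown to be unchanged. These 3 comparisons share the WT libraries, so their values are given side by side and are not independent.

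The median log2 fold change of the 83 genes was -0.09 in HxD, with 62 genes below 0, -0.05 in KO, with 48 below 0, and 0.08 in V, with 62 above 0. Over all tested genes the medians were -0.01, -0.02 and 0. The spread between libraries was larger than these shifts: the SD of the library medians within groups, pooled over the groups compared, was 0.28 in HxD and WT, 0.28 in KO and WT and 0.27 in V and WT. Leaving out WT1, the library richest in these transcripts, turned the HxD median to 0.09 and the KO median to 0.12 and raised that of V to 0.27. Large-subunit genes had medians of -0.09, -0.05 and 0.06 in HxD, KO and V, and small-subunit genes of -0.11, -0.08 and 0.10, so both subunits lay on the same side of 0 in each mutant. Between mutants no ribosomal protein gene was called, as was none of all 16166 genes (percent called 0). At an unadjusted p under 0.05, edgeR gave 0 of the 83 in HxD against KO, where 3.18% of all genes passed, 8 in V against KO (9.64%, against 4.62% of all genes) and 1 in V against HxD (1.20%, against 2.02%).

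**Figure D2:**
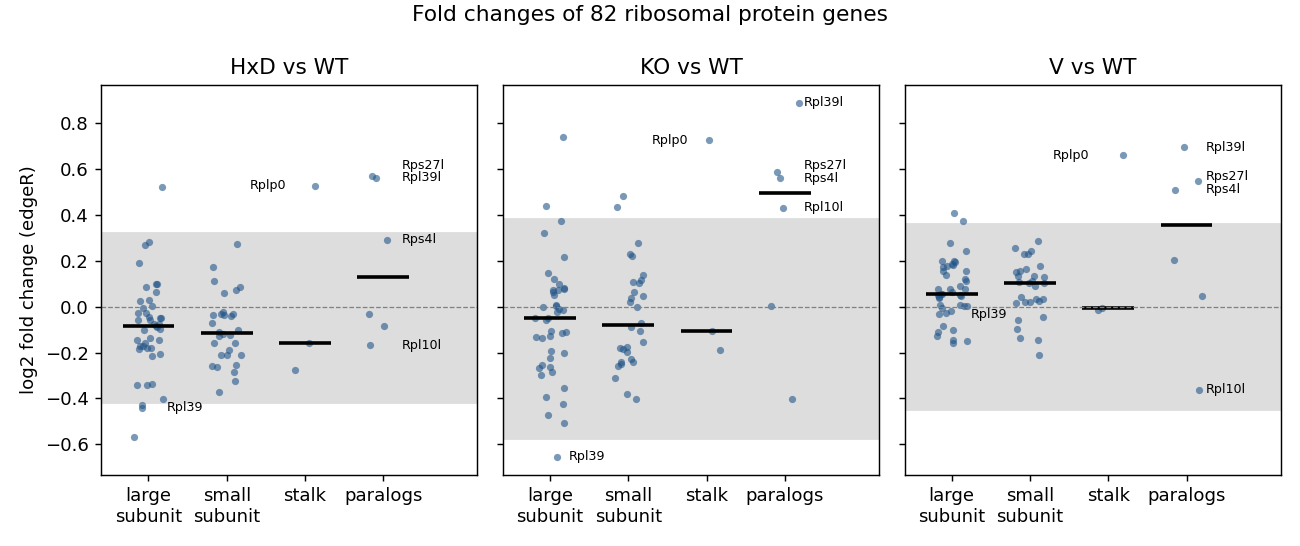
Log2 fold change (edgeR) of 82 ribosomal protein genes in HxD, KO and V against the same WT libraries, by class; each point is a gene, black bars are class medians, and the grey band holds the middle 50% of all tested genes. Most large- and small-subunit genes lie inside the band, while Rpl39l, Rps27l, Rplp0 and the large-subunit gene Rpl31 lie above it in each mutant. Rpl3l, with few counts, is left out.

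Rpl39l encodes an autosomal copy of Rpl39, a small protein of the ribosomal exit tunnel. It was at 50.3, 44.2 and 32.4 CPM in WT1, WT2 and WT3 and at 71.0, 75.7 and 88.4 CPM in KO1, KO2 and KO3. It was at 54.4, 75.3 and 57.8 CPM in the HxD libraries, and the V libraries had 74.0, 54.2 and 77.3 CPM. Each mutant library was thus above each WT library. The log2 fold change was 0.89 ± 0.23 (SE) in KO (adjusted p = 0.0499), 0.56 ± 0.23 in HxD (adjusted p = 0.611) and 0.69 ± 0.23 in V (adjusted p = 0.247). Libraries of a mutant lay all above those of WT for 6.43% of all tested genes in HxD, 8.17% in KO and 8.7% in V. The KO call sat at the threshold. It was lost without HxD3, V3 or any 1 of the KO or WT libraries (adjusted p up to 0.138), and with DESeq2 size factors (0.0609) or limma-voom (0.0737). Over 22 alternatives the log2 fold change stayed between 0.73 and 1.04, with an adjusted p of 0.0250 to 0.208 that was under 0.05 in 8. Between the mutants Rpl39l differed by -0.33 ± 0.23 (HxD minus KO), -0.19 ± 0.23 (V minus KO) and 0.13 ± 0.23 (V minus HxD), none called.

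The X-linked parent Rpl39 went the other way in KO, without passing the test. It was at 501, 262 and 338 CPM in WT1, WT2 and WT3, 313, 169.9 and 217 CPM in KO, 371, 261 and 179.6 CPM in HxD, and 437, 348 and 292 CPM in V. The groups overlapped. Its log2 fold changes were -0.65 ± 0.25 in KO (adjusted p = 0.224), -0.44 ± 0.25 in HxD (0.736) and -0.03 ± 0.25 in V (0.993). As a log2 ratio of counts, Rpl39l to Rpl39 averaged -3.09 ± 0.45 (SD, n = 3) in WT, -2.07 ± 0.61 in HxD, -1.53 ± 0.53 in KO and -2.39 ± 0.41 in V. Such a ratio does not depend on the scaling of the libraries. The KO libraries, at -2.14 to -1.17, lay above the WT libraries, at -3.38 to -2.57, and those of HxD and V overlapped WT.

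The same ratio was tested for the 7 pairs in which both genes passed the filter, by an exact permutation test of a difference among the 4 groups over all 369600 assignments of the libraries. No pair passed after adjustment over the 7 pairs. The lowest p values were 0.0344 for Rpl39l, 0.0392 for Rps27l and 0.0419 for Rps4l, each adjusted to 0.0979 by the exact permutation test. For Rpl10l the adjusted value was 0.512, for Rpl22l1 0.595, for Rpl3l 0.849 and for Rpl7l1 0.925.

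Rps4l is the chromosome 6 copy of Rps4x, a small-subunit gene on the X chromosome. The WT libraries held 347, 303 and 354 CPM, those of HxD 318, 491 and 419 CPM, those of KO 457, 417 and 606 CPM and those of V 555, 377 and 499 CPM. The KO and V libraries were all above WT, and HxD overlapped. The log2 fold changes were 0.29 ± 0.19 in HxD, 0.56 ± 0.19 in KO and 0.51 ± 0.19 in V (adjusted p = 0.803, 0.162 and 0.338). Its parent Rps4x differed from WT by -0.10 (95% confidence interval -0.48 to 0.27) in HxD, 0.05 (-0.33 to 0.42) in KO and 0.03 (-0.34 to 0.41) in V. The log2 count ratio of the pair averaged -1.81 ± 0.23 in WT, -1.44 ± 0.16 in HxD, -1.32 ± 0.20 in KO and -1.34 ± 0.15 in V.

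Rps27l, a paralog of the small-subunit gene Rps27 and a known p53 target, had similar values in the 3 mutants. It was at 209, 165 and 115 CPM in WT, at 208, 278 and 239.8 CPM in HxD, then 251, 227 and 256 CPM in KO and at 257, 157 and 300.3 CPM in V. Only the KO libraries all lay above WT. The log2 fold changes were 0.57 ± 0.22 in HxD, 0.59 ± 0.22 in KO and 0.55 ± 0.22 in V (adjusted p = 0.556, 0.209 and 0.383). Rps27 itself had log2 fold changes of -0.04, 0.06 and 0.24, each with an SE of 0.23.

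Rpl10l, the autosomal copy of Rpl10 that male germ cells need in meiosis, showed no common direction. It was at 43.1, 27.1 and 52.2 CPM in WT, 56.1, 23.1 and 29.6 CPM in HxD, 48.1, 54.7 and 62.4 CPM in KO, and 41.6, 13.5 and 40.3 CPM in V. All groups overlapped WT, and HxD alone ran from 23.1 to 56.1 CPM. The log2 fold changes were -0.17 (95% confidence interval -0.89 to 0.55) in HxD, 0.43 (-0.29 to 1.16) in KO and -0.36 (-1.09 to 0.36) in V, none called, and that of V was 0.0075 without V2. V was below KO in every library (-0.79 ± 0.36, adjusted p = 0.945), as were 4.92% of all tested genes. The parent Rpl10, an X-linked gene for a large-subunit protein that joins late, was at 234 to 326 CPM in WT, 325 to 369 in HxD, 337 to 378 in KO and 364 to 387 in V, with log2 fold changes of 0.28 ± 0.16, 0.32 ± 0.16 and 0.41 ± 0.16 (adjusted p = 0.751, 0.399 and 0.403).

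No other paralog was called. Rpl22l1, a relative of the large-subunit gene Rpl22, was at 213, 126 and 129 CPM in WT and at 120.5, 96.2 and 138 CPM in KO, with log2 fold changes of -0.03, -0.40 and 0.21 in HxD, KO and V (SE 0.22 each, none called). Rpl7l1 differed from WT by -0.09 (95% confidence interval -0.49 to 0.32), 0.00 (-0.40 to 0.41) and 0.05 (-0.36 to 0.46). For Rpl3l, with counts mainly in WT1, no fold change is given.

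**Figure D3:**
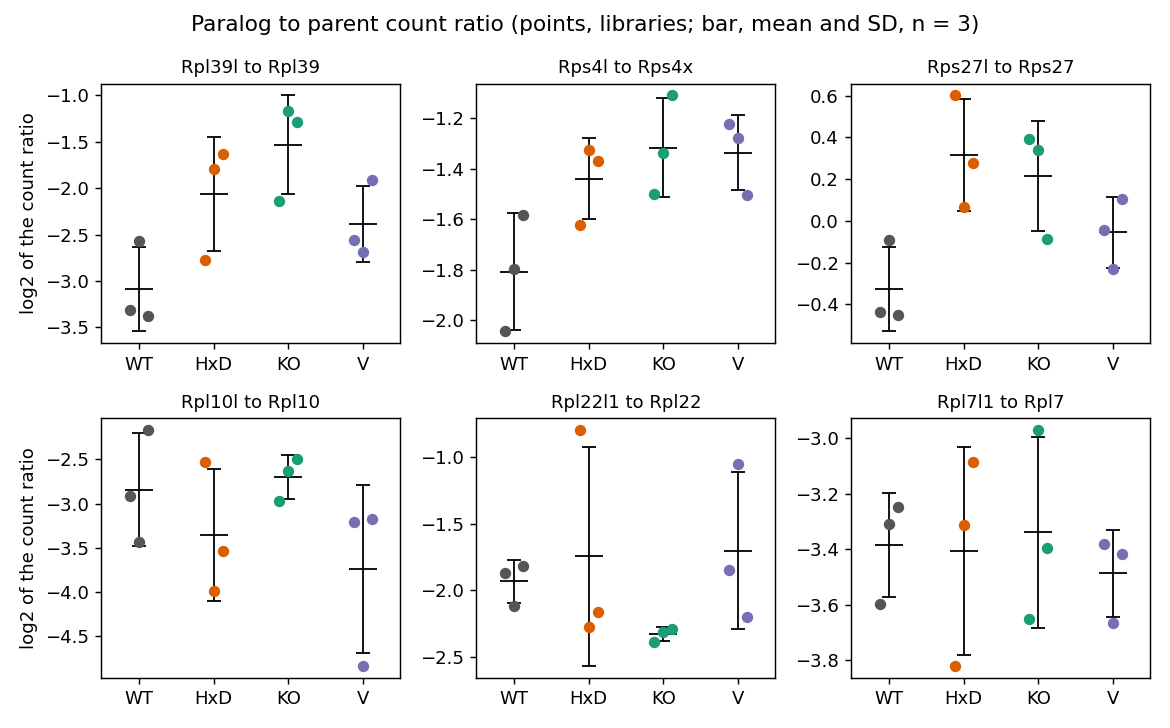
Log2 ratio of paralog to parent counts in each library (coloured points) with the mean and SD of the 3 libraries of a group (bars), for 6 pairs; scales differ between panels. The Rpl39l to Rpl39 ratio was lowest in WT at a mean of -3.09 and highest in KO at -1.53, while for Rpl10l to Rpl10 each mutant overlapped WT and each V library lay below each KO library.

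The stalk of the large subunit, which recruits translation factors, is built of P0 (Rplp0) carrying the acidic proteins P1 and P2 (Rplp1, Rplp2). None of the 3 was called. Rplp0 was at 569.7, 377 and 582 CPM in WT, at 704, 570.5 and 929 CPM in HxD, then 876, 482 and 1172 CPM in KO and at 837, 527 and 1051 CPM in V. Each mutant overlapped WT through 1 library. The log2 fold changes were 0.53 ± 0.26 in HxD, 0.73 ± 0.26 in KO and 0.66 ± 0.26 in V (adjusted p = 0.685, 0.183 and 0.377), and the KO difference was called without KO2 (1.01, adjusted p = 0.0225). Rplp1 differed from WT by -0.16 (95% confidence interval -0.60 to 0.29), -0.11 (-0.55 to 0.34) and -0.01 (-0.45 to 0.44) in HxD, KO and V, and Rplp2 by -0.28 (-0.73 to 0.17), -0.19 (-0.64 to 0.26) and -0.01 (-0.46 to 0.44).

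Among the core genes of the subunits, the extremes were not called either. In HxD the genes furthest below WT, apart from Rpl3l, were Rpl37a (-0.57 ± 0.23, adjusted p = 0.611) and Rpl39. In KO they were Rpl39 and Rpl41, which encodes a very short peptide of the large subunit (-0.50 ± 0.24, adjusted p = 0.362). In V they were the paralog Rpl10l and, as the lowest core gene, Rps15 (-0.21 ± 0.21, adjusted p = 0.866). Rpl31 was among the highest in KO (0.74 ± 0.46, adjusted p = 0.502), at 149, 194 and 307 CPM against 136, 161 and 91.0 CPM in WT. Rpl5 and Rpl11, which together with 5S rRNA can bind the p53 regulator MDM2, differed from WT by 0.09, 0.01 and 0.18 (SE 0.19) and by -0.06, -0.19 and 0.11 (SE 0.18). The fourth X-linked gene, Rpl36a, had -0.43, -0.39 and -0.13 (SE 0.21), none called.

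Some genes had each library of a mutant on 1 side of each WT library, and their counts are given beside the share of all tested genes. In KO, 7 of the 83 lay above WT, among them Rpl10, Rpl39l, Rps27l and Rps4l, where 8.17% of all tested genes did. Rpl35a alone lay below WT in KO, where 8.36% of all tested genes did. In V, Rpl10, Rpl34, Rpl39l, Rpl4 and Rps4l lay above WT, 5 in all, against 8.7% of all genes, and none lay below, against 7.48%. In HxD only Rpl39l lay above, against 6.43% of all genes, and none below, against 5.77%. V lay above KO for 10 genes, against 6.19% of all genes, and above HxD for 3, against 4.53% above and 4.57% below; HxD and KO overlapped for each gene, against 4.92% of all genes above and 3.72% below. The 3 genes in V against HxD were Rpl7, Rps3 and Rps3a1, at log2 differences of 0.22, 0.25 and 0.23.

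The ribosomal protein genes varied mainly from library to library, and in common. Over the 12 libraries the median Pearson correlation of log2 CPM between 2 of the 83 genes was 0.60 over 3403 pairs, and 60.7% of the pairs exceeded 0.5. The points of each pair share the library and its scaling. The same share was not computed for pairs of other genes, so these values are not shown to be particular to ribosomal protein genes. Centred on each gene's mean over the libraries, the median of the 83 genes was lowest in HxD1 (-0.35) and KO2 (-0.31) and highest in WT1 (0.34), V3 (0.26), V1 (0.24) and KO3 (0.23). Each group thus held libraries on either side of 0. The range of this median was 0.69, against 0.56 for 39 ribosome biogenesis genes, 0.52 for 21 regulators of mTOR and Myc, 0.45 for 77 mitochondrial ribosomal protein genes, 0.40 for 16 other TOP mRNAs and 0.28 for all tested genes. It was 2.93 for the 5 tested pseudogene rows, which have few counts. The median SD of a gene's log2 CPM was 0.32 for the 83 genes and 0.23 for the 2186 tested genes in the same range of levels. HxD1 and KO3, with the fewest genes with a count (12815 and 12568), lay at -0.35 and 0.23; the relation of this median to the number of genes captured was not tested.

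**Figure D4:**
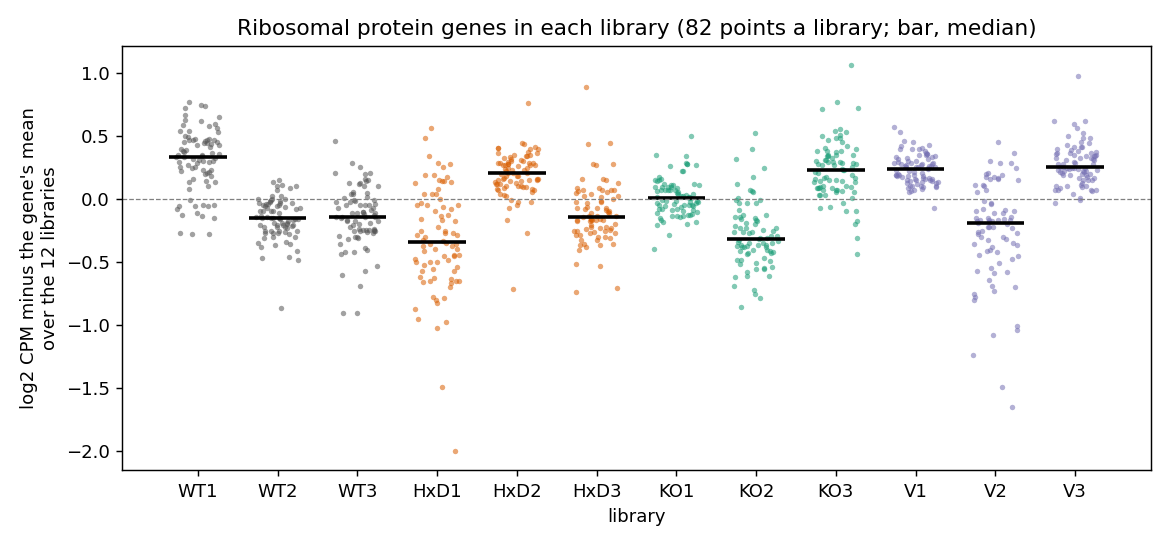
Deviation of 82 ribosomal protein genes from each gene's mean over the 12 libraries, in log2 CPM, by library; points are genes, coloured by group, and bars are medians. The medians run from -0.35 in HxD1 to 0.34 in WT1, libraries of 1 group lie on both sides of 0, and HxD1 and V2 have the longest lower tails.

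Beyond this common shift, pairs of libraries from different groups shared a profile across the genes. In HxD1 and V2 the deviations of the 83 genes correlated at 0.78 across genes, and in HxD3 and KO2 at 0.76; genes are not independent replicates, and these values describe the libraries. Of the 76 core genes, 55 were below their mean in both HxD1 and V2, 15 above in both and 6 opposite, and 16 of the 20 lowest genes were shared, which is 80.0% of each list. Rpl31, a large-subunit protein by the exit tunnel, was at 36.7 CPM in HxD1 and 46.8 CPM in V2 and at 91.0 to 307 CPM in the other libraries. Rpl24, which forms a bridge between the subunits, was at 40.6 and 48.5 CPM there and at 93.1 to 188 CPM elsewhere. These were the only core genes more than 1 log2 unit below their mean in both libraries. Within groups the correlations ran from -0.75 (HxD1 and HxD2) to 0.62 (HxD2 and HxD3). All these correlations between libraries include Rpl3l, which is left out of the figures for its few counts. It had 0 counts in HxD1 and V2, 36 in HxD2, 14 in HxD3 and 18 in KO2. Its deviation was the largest in size of the 83 genes in each of these libraries. How far Rpl3l alone moved the correlations was not tested. Over the 83 genes, Rpl3l included, the deviation was weakly related to the percentage of G and C bases in the transcript in HxD1 and V2. The Pearson correlation was -0.26 in HxD1 and -0.24 in V2, and -0.04 to 0.20 in the other libraries. The cause of what HxD1 and V2 have in common was not tested, and the labels give no batch.

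**Figure D5:**
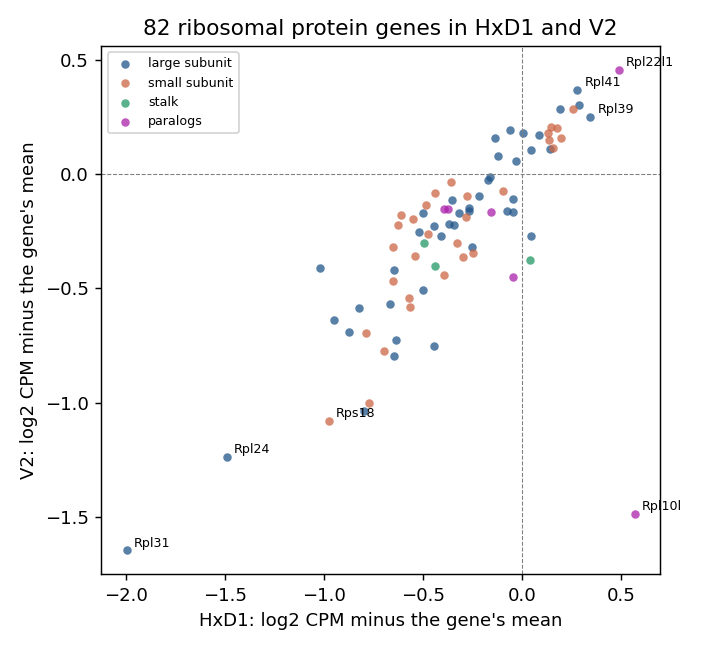
Deviation of 82 ribosomal protein genes from each gene's mean in V2 against that in HxD1, in log2 CPM; each point is a gene, coloured by class. The core genes run along the diagonal down to Rpl31 (-1.65 in V2) and Rpl24 (-1.49 in HxD1 and -1.24 in V2), and Rpl10l is off it at 0.57 and -1.49.

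Without HxD1 and V2, a choice made after seeing this, Rpl39l was again the ribosomal protein gene called in KO. Neither library is of KO or WT, so this fit could alter that call only through the shared spread, filter and scaling. No ribosomal protein gene was called in another comparison, and the medians were 0.00 in HxD, -0.06 in KO and 0.20 in V. Of all 17211 genes then tested, 283 were called in KO, 7 in HxD and 46 in V against WT. The 5 other genes whose log2 CPM followed the mean of the ribosomal protein genes most closely over the 12 libraries were Rnaseh2b (Pearson 0.95), Ubl5 (0.92), Ndufb6 (0.91), Phpt1 (0.91) and Cox7c (0.90), given as a description.

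Genes of the same pathway were taken as lists. Of 16 other TOP mRNAs, many of which encode translation factors, none was called in any comparison with WT, with medians of 0.06, 0.16 and 0.18 in HxD, KO and V. Of 39 ribosome biogenesis genes, none was called, with medians of 0.13, 0.18 and 0.28 and 30, 32 and 33 genes above 0. The summed level of this list was 7899 to 9806 CPM in the WT libraries. Each mutant overlapped it, at 8641 to 10941 CPM in HxD, 9276 to 10039 in KO and 9533 to 11271 in V. Of 77 mitochondrial ribosomal protein genes none was called, with medians of 0.00, -0.02 and 0.17. Of 21 regulators of the mTOR and Myc pathways, 3 were called in KO and none in HxD or V (edgeR), where 1.22%, 0.0309% and 0.155% of all tested genes were called. Deptor, an inhibitor of mTOR (0.94 ± 0.24, adjusted p = 0.0451), and Eif4ebp1, which restrains cap-dependent translation (0.89 ± 0.22, adjusted p = 0.0402), were higher, and Larp1b, a relative of the TOP-binding Larp1, was lower (-1.01 ± 0.23, adjusted p = 0.0251). Whether these 3 calls hold in the alternative fits was not examined. The list was chosen with earlier results of these data known. Of the 12 pseudogene rows, 5 were tested and none was called; together the 12 held 4.16 to 13.2 CPM in a library, so few reads were assigned to these pseudogenes.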

How the data were processed

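The authors deposited whole-number counts per gene, not normalized. The submitters' processing notes list featureCounts (2.0.3), SAMtools (1.9), STAR (2.7.10b) and Trim Galore (0.6.7), and name GRCm39 and mm10 as builds, with no role for either. The annotation, the strand setting and how multi-mapping reads were counted were, in the sources used here, not given. Groups and replicate numbers came from sample titles. The main test was edgeR 4.0.16 (R 4.3.3) on these counts: quasi-likelihood F test, two-sided, TMM, filterByExpr, 1 fit of 12 libraries on group, and Benjamini-Hochberg adjustment over 16166 genes. Alternatives used DESeq2 (version 1.42.0) and limma-voom (version 3.58.1). Log2 CPM used a prior count of 2, and paralog ratios had 0.5 added to each count. Library depths are in the report. Intervals are at 95% confidence, and without molecular identifiers counting error understates the error. The edgeR fit was tested on simulated data. Same-numbered libraries did not deviate together (0 of 18 pairs above a correlation of 0.1). No library repeated another of its own group: the lowest chi-square between replicates was 29.9 per degree of freedom. Libraries of different groups were not compared in this way. The members, classes and gene lists were chosen with earlier results of these data known. Named genes were the paralogs with their parents, the stalk and X-linked genes, Rpl5 and Rpl11, called genes, the 3 largest rises and falls in each comparison with WT, the 3 highest and lowest levels, called genes of each pathway list and the 5 genes most like the members; Rpl24, the called germ cell markers and the genes listed by non-overlap were named after their values were seen. Some genes are not reported here.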

Additional observations from a re-analysis of the deposited data

How the results depend on the processing

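The medians over ribosomal protein genes kept within the spread of the library medians under 65 of 66 alternatives, and no paralog ratio passed or lost its threshold in 112. Counts of called genes held in 114 of 132. The KO count of 1 became 0 with DESeq2 size factors, TMM without the ribosomal protein genes or limma-voom. It was also 0 with a minimum mean of 5 CPM or a fit of only the 6 libraries compared. In these fits 26 to 193 of all tested genes were called in KO. Without a filter the count was 4 (Rpl31, Rpl39l and Rplp0 higher, Rpl39 lower), where 464 of 22037 genes were called. With the replicate number as a block it was 2 (Rpl39l and Rplp0), where 285 of 16166 genes were called. The numbers do not pair the libraries, 3 of 12 libraries correlating best with their own number, and the block changed no other count. Leaving out each library in turn gave 0 to 1 in KO, where 49 to 425 of all tested genes were called, and 0 in every other comparison. The medians ranged from -0.25 to 0.09 in HxD, -0.18 to 0.12 in KO and -0.04 to 0.27 in V. Without HxD1, KO1 and KO3, the libraries known to capture few genes, the medians were 0.00 in HxD, -0.37 in KO and 0.08 in V. KO is then 1 library, assumed to vary like the others, so counts of called genes are not given for this fit. The cause of the lower KO median was not tested. Fold changes of single genes that reversed, none of them called, were these, with their range when each library was left out: Rpl10l in HxD (-0.63 to 0.074; 0.05 without WT3) and in V (-0.60 to 0.0075; 8.61e-06 without HxD1 and V2); in V also Rpl41 (-0.088 to 0.33; -0.05 without V1), Rpl37a (-0.30 to 0.094; 0.0046 without V2), Rpl39 (-0.23 to 0.26; 0.10 without V3) and Rpl31 (-0.28 to 0.82); and Rplp0 in KO (-0.11 without HxD1, KO1 and KO3). The 3 libraries a group limit which changes could be called.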
